A study of Saccharomyces cerevisiae with 8 samples.

Results

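Messenger RNA levels of 10 budding yeast genes that let cells build sugar from non-sugar carbon were followed across 4 strains grown on glycerol. The set holds the gluconeogenic enzyme genes FBP1 and PCK1 and the glyoxylate cycle and malate genes ICL1, MLS1 and MDH2. It also holds the carrier and uptake genes SFC1 and JEN1, the acetyl-CoA synthetase gene ACS1, and the activator genes CAT8 and SIP4. They were taken by name from the array annotation, and each of the 10 was matched by 1 probe set among 5498 probe sets assigned to 1 yeast gene, 10928 probe sets in all. All 10 were above the background level on every one of the 8 arrays, so all 10 were among the 5496 probe sets tested. The lowest value, that of SFC1 on an A880STM1K array, was still 6.05 times background.

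BY4741 is labelled as the wild type control. A880 is labelled as BY4741 lacking POP2, which encodes a nuclease that trims poly(A) tails as part of CCR4-NOT. A880 that received STM1, which encodes a protein bound to ribosomes, is labelled A880STM1 when the gene was unaltered and A880STM1K when arginine 237 was replaced by lysine. No vector, promoter or number of transformants is given in the labels. All 4 strains grew in synthetic medium with 2% glucose until the optical density was 1, and were moved to 2% glycerol for 12 hours. Each strain was measured on 2 arrays, which the labels call biological replicates and the series text describes as coming from separate experiments and cultures.

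Gluconeogenesis runs glycolysis in reverse and needs its own enzymes where glycolytic steps cannot be reversed: FBP1 hydrolyses fructose 1,6-bisphosphate and PCK1 makes phosphoenolpyruvate from oxaloacetate. The glyoxylate cycle turns acetyl units into a net gain of malate and so feeds PCK1 during growth on acetate or ethanol. Glycerol itself enters at the triose phosphates, above the PCK1 step and below the FBP1 step. In yeast these genes are repressed by glucose, and their release needs the Snf1 kinase and the zinc cluster activators Cat8 and Sip4, SIP4 being itself under Cat8 control.

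The arrays were first read for the genes named in the strain labels. POP2 (YNR052C) had signals of 883 and 814 on the BY4741 arrays and 0.221 and 0.452, below background, on the A880 arrays. It was detected again at 181 and 286 on the A880STM1 arrays and at 255 and 176 on the A880STM1K arrays, which goes against the labels of those 4 arrays. STM1 (YLR150W) was highest on the arrays of the strains that should carry the added gene, at 5027 to 9441, against 2043 to 3096 on the other 4 arrays. The 8 haploid cell genes, used in mating or repressed in a/alpha diploid cells, had a summed signal of 4379 to 5336 on BY4741 and A880 arrays, 613 and 723 on A880STM1 arrays and 1281 and 983 on A880STM1K arrays. Against A880, 8 of those 8 were called lower in A880STM1 and 7 of 8 in A880STM1K, as were 13.1% and 28.0% of all tested probe sets. Strain names therefore stand for the arrays labelled so, and a difference between strains cannot be assigned to POP2 or STM1 alone.

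The leading pattern was a fall of the whole set in the A880STM1K strain. All 10 genes were lower there than in A880, than in A880STM1 and than in BY4741, with no overlap between the arrays of the groups compared. Among the other 3 strains PCK1, ICL1 and SIP4 were the genes that passed the test in any comparison. Their A880 means were 36.1%, 28.9% and 48.6% of the BY4741 means. Signals are the deposited MAS5 values, which have nearly the same trimmed mean on every array, as read from the values themselves. Changes are log2 differences ± SE from a limma fit over all 8 arrays with n = 2 per strain, and a gene counts as changed at an adjusted p below 0.05 over all 5496 probe sets. Since each array reports RNA from a whole culture on a common total, fewer cells expressing a gene and less of its RNA per cell cannot be told apart.

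**Figure D1:**
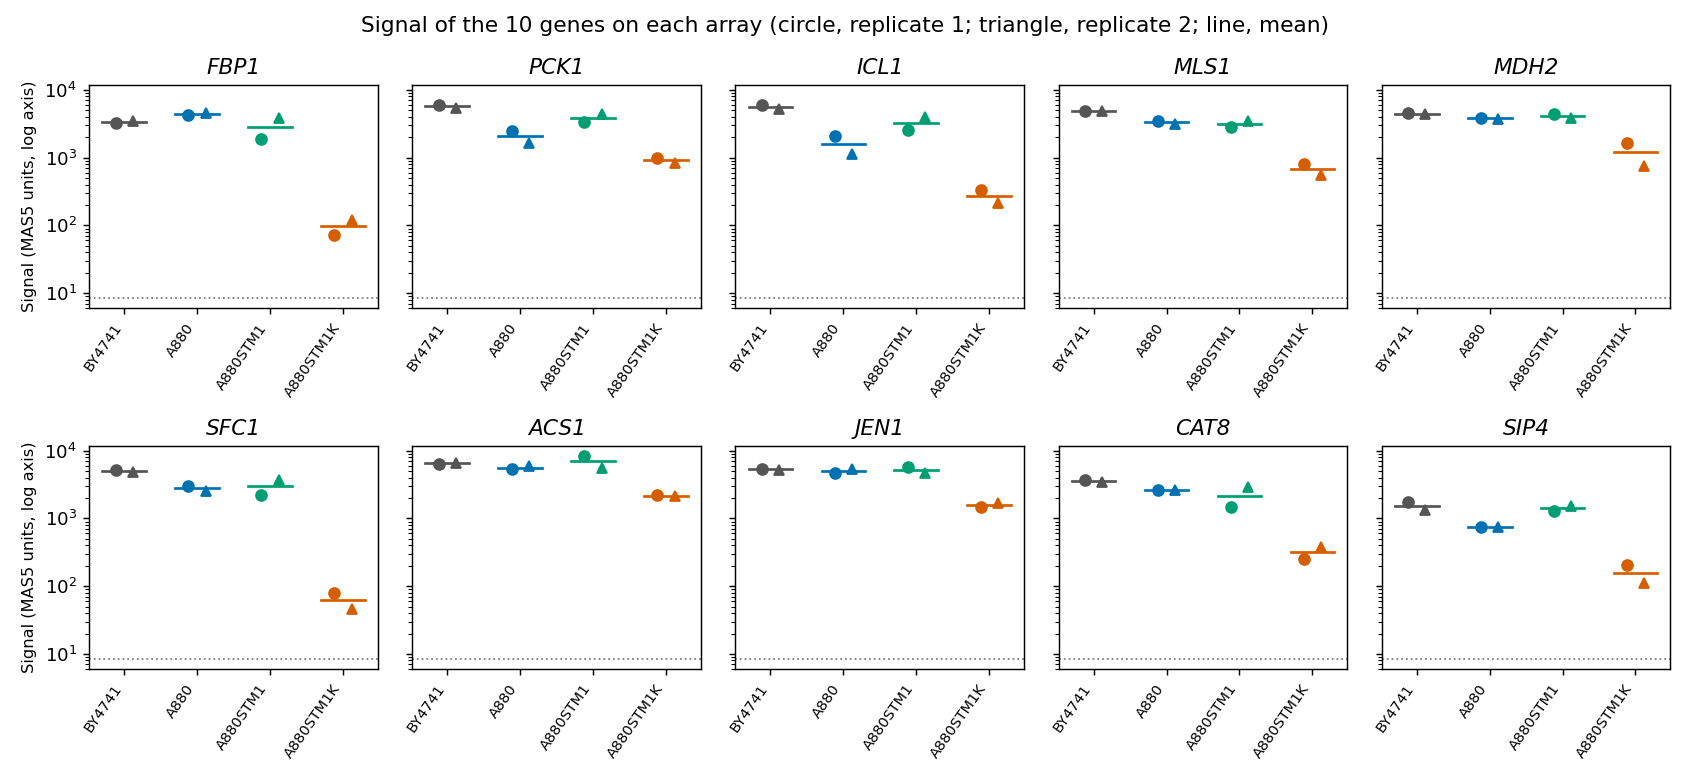
Signal of each of the 10 genes on the 8 arrays in MAS5 units on a log axis, with circles for replicate 1, triangles for replicate 2, a line at each strain's mean and a dotted line at the highest background level of the 8 arrays, 8.40. In every panel both A880STM1K arrays lie below the 6 other arrays, most deeply for FBP1 and SFC1.

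Both activator genes were among those that fell in A880STM1K. CAT8 (YMR280C), the zinc cluster activator of gluconeogenic genes, gave 3699 and 3389 on the BY4741 arrays, 2652 and 2642 on A880, 1482 and 2866 on A880STM1, and 254 and 377 on A880STM1K. The A880STM1K arrays were the lowest of the 8 by a wide margin, while replicate 1 of A880STM1 stood apart from its partner. CAT8 was 8.55-fold lower in A880STM1K than in A880 (log2 -3.10 ± 0.31, adjusted p = 6.31e-05) and 6.66-fold lower than in A880STM1 (log2 -2.73 ± 0.31, adjusted p = 0.000173). SIP4 (YJL089W), the related activator, gave 1721 and 1317 on BY4741, 739 and 738 on A880, 1288 and 1513 on A880STM1, and 206 and 111 on A880STM1K. Here A880 lay below both BY4741 and A880STM1, whose ranges overlapped, and A880STM1K lay below all. SIP4 was 4.88-fold lower in A880STM1K than in A880 (log2 -2.29 ± 0.30, adjusted p = 0.000295) and 9.23-fold lower than in A880STM1 (log2 -3.21 ± 0.30, adjusted p = 6.84e-05).

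The 2 gluconeogenic enzymes differed from each other in how much signal was left. FBP1 (YLR377C), fructose-1,6-bisphosphatase, had 3301 and 3491 on BY4741, 4239 and 4567 on A880, 1882 and 3837 on A880STM1, and 71.8 and 122 on A880STM1K. It was the only 1 of the 10 whose A880 arrays were both above the BY4741 arrays, and its A880STM1K mean was 2.20% of the A880 mean. FBP1 fell 47.0-fold in A880STM1K against A880 (log2 -5.56 ± 0.34, 95% interval -6.31 to -4.80). PCK1 (YKR097W), phosphoenolpyruvate carboxykinase, had 5984 and 5484 on BY4741, 2476 and 1659.5 on A880, 3349 and 4359.85 on A880STM1, and 992 and 838 on A880STM1K. Its A880 arrays were already low, and the A880STM1K mean was 44.2% of the A880 mean. PCK1 fell 2.22-fold in A880STM1K against A880 (log2 -1.15 ± 0.25, 95% interval -1.70 to -0.60), adjusted p = 0.00382, the smallest change of the 10. The intervals of FBP1 and PCK1 in that comparison lay apart. Without A880 replicate 1 the PCK1 change was log2 -0.86 with an adjusted p of 0.0670, the only call of the 10 that was lost in any of the 3 comparisons of A880STM1K under 21 alternative settings.

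In the glyoxylate cycle and its malate and succinate steps, the falls ranged from 3.41-fold to 45.7-fold against A880. ICL1 (YER065C), isocitrate lyase, gave 6036 and 5159.7 on BY4741, 2118 and 1114 on A880, 2586 and 3990.5 on A880STM1, and 333 and 216 on A880STM1K. Like PCK1, it was lowered in A880 and lower again in A880STM1K, by log2 -2.52 ± 0.34 against A880 and by -3.58 ± 0.34 against A880STM1 (adjusted p = 0.000331 and 6.92e-05). MLS1 (YNL117W), malate synthase, the next enzyme of the cycle, gave 4918 and 4854 on BY4741, 3495 and 3159 on A880, 2820.25 and 3420.02 on A880STM1, and 807 and 553 on A880STM1K. A880 and A880STM1 overlapped for MLS1, and both lay below BY4741 by less than the test could call. MDH2 (YOL126C), the cytosolic malate dehydrogenase, gave 4602 and 4359 on BY4741, 3815 and 3783 on A880, 4417 and 3852 on A880STM1, and 1652 and 754 on A880STM1K. Its A880STM1K arrays differed from each other by more than those of any other of the 10 genes, yet both lay below the 6 other arrays. MLS1 and MDH2 were lower in A880STM1K than in A880STM1 by log2 -2.22 ± 0.23 and -1.89 ± 0.31 (adjusted p = 0.000112 and 0.00134).

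SFC1 (YJR095W), the mitochondrial carrier that exchanges succinate from the cycle for fumarate, gave 5157 and 4766 on BY4741, 3034.5 and 2524 on A880, 2241 and 3702 on A880STM1, and 79.3 and 46.2 on A880STM1K. Among the 10 genes it had the lowest share of its BY4741 mean left in A880STM1K, 1.26%. SFC1 fell 45.7-fold against A880 (log2 -5.51 ± 0.31), 47.6-fold against A880STM1 (log2 -5.57 ± 0.31) and 81.9-fold against BY4741 (log2 -6.36 ± 0.31), with a largest adjusted p of 4.83e-06.

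The genes for entry of acetate and lactate kept the largest shares of BY4741 signal. ACS1 (YAL054C), an acetyl-CoA synthetase, gave 6421 and 6506 on BY4741, 5289.6 and 5879 on A880, 8382 and 5604 on A880STM1, and 2193 and 2107 on A880STM1K. JEN1 (YKL217W), the lactate and pyruvate permease, gave 5378 and 5178 on BY4741, 4735 and 5269.6 on A880, 5827 and 4619.9 on A880STM1, and 1489 and 1701 on A880STM1K. The 6 arrays of the other strains ran from 5289.6 to 8382 for ACS1 and from 4619.9 to 5827 for JEN1, above both A880STM1K arrays, and replicate 1 of A880STM1K differed from replicate 2 by log2 0.06 for ACS1 and -0.19 for JEN1. ACS1 kept 33.3% and JEN1 30.2% of the BY4741 mean. Against A880 the falls were log2 -1.38 ± 0.23 for ACS1 and -1.65 ± 0.21 for JEN1 (adjusted p = 0.000998 and 0.000224). ACS1 reached 81.6% of the brightest probe set on an array, the highest share of the 10, and whether high signals were compressed was not tested.

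**Figure D2:**
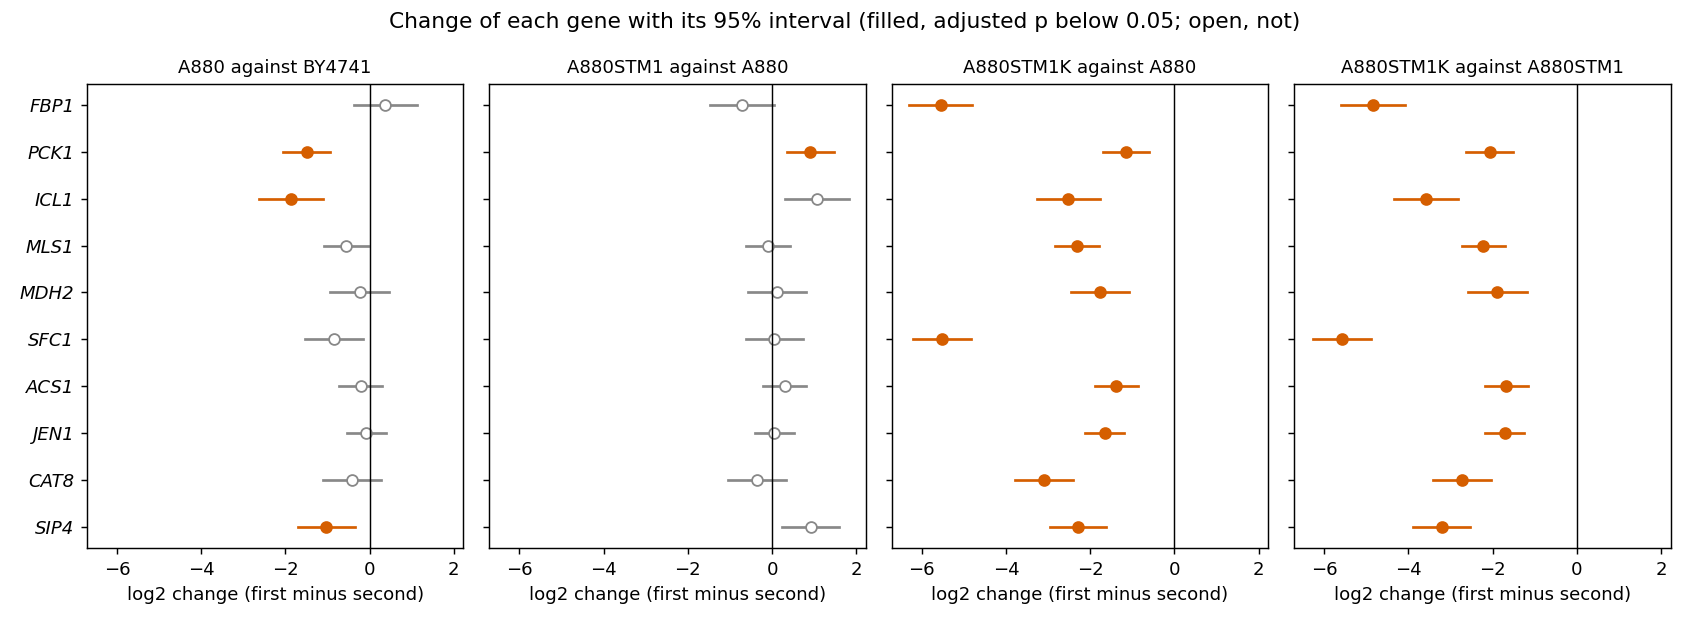
log2 change of each gene in 4 comparisons with its 95% interval, filled where the adjusted p was below 0.05. All 10 points are filled and left of 0 in both comparisons of A880STM1K. In A880 against BY4741 3 are filled, all left of 0, and in A880STM1 against A880 1 is filled, PCK1, right of 0.

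The comparison of A880 with BY4741 asks what differs when POP2 is missing. In A880, 3 of the 10 genes were lower and 0 higher, where 6.19% of all tested probe sets were called lower and 7.71% higher. ICL1 was 3.63-fold lower (log2 -1.86 ± 0.34, adjusted p = 0.00786), PCK1 2.83-fold lower (log2 -1.50 ± 0.25, adjusted p = 0.00501) and SIP4 2.04-fold lower (log2 -1.03 ± 0.30, adjusted p = 0.0481). The other 7 ranged from log2 -0.84 ± 0.31 for SFC1 to 0.37 ± 0.34 for FBP1, with adjusted p from 0.0947 to 0.832. The median of the 10 was log2 -0.49 in the fit, against 0.02 for all tested probe sets. It was also -0.49 between arrays of the same replicate number, though whether such arrays are paired was not tested. The arrays did not overlap for 9 of the 10 genes, JEN1 being the exception, and for 79.2% of all tested probe sets, so this count is near the background.

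These calls rested on few arrays. PCK1 and ICL1 lost theirs without BY4741 replicate 1 (adjusted p = 0.0633 and 0.0692) or without A880 replicate 2 (adjusted p = 0.0818 and 0.0817). SIP4 lost its call without any 1 array of BY4741, A880 or A880STM1 (adjusted p = 0.0615 to 0.353), with all probe sets of the array (adjusted p = 0.0784) and with no intensity trend (adjusted p = 0.0608). In a fit of only these 4 arrays, whose replicates lay closer together than those of the transformed strains, 8 of the 10 passed, 7 lower and FBP1 higher at log2 0.37, adjusted p = 0.00979. That fit called 24.8% of all tested probe sets lower and 29.6% higher.

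A880STM1 was next set against A880. By the labels they differ in the added unaltered STM1. The POP2 signal and the haploid cell genes differed as well, so changes cannot be assigned to STM1. PCK1 was the only 1 of the 10 called, 1.88-fold higher (log2 0.91 ± 0.25, adjusted p = 0.0308), where 6.82% of all tested probe sets were called higher and 13.1% lower. ICL1 at log2 1.06 ± 0.34 (adjusted p = 0.0511) and SIP4 at 0.92 ± 0.30 (adjusted p = 0.0550), the others that had been lower in A880, missed the threshold. Both passed with equal array medians (adjusted p = 0.0212 and 0.0170), a pseudocount of 16 (0.0484 and 0.0494), the replicate block (0.0268 and 0.0350) and without either A880STM1K array (0.0144 to 0.0382). ICL1 also passed without A880 replicate 1 (adjusted p = 0.0467), and SIP4 with quantile normalization (adjusted p = 0.0151) and in a fit of only the 4 arrays (adjusted p = 0.0366). The comparison shares its A880 arrays with that of A880 and BY4741, so a high or low A880 array enters both in opposite directions. The remaining 7 ranged from log2 -0.71 ± 0.34 for FBP1 to 0.30 ± 0.23 for ACS1. The PCK1 call was lost without any 1 array of BY4741, A880 or A880STM1, at adjusted p from 0.0598 to 0.277. It was also lost with quantile normalization (log2 0.72, adjusted p = 0.109), with all probe sets of the array (adjusted p = 0.0537), in a fit of only the 4 arrays (adjusted p = 0.0559) and with array weights per group (adjusted p = 0.115). The median of the 10 was log2 0.09, or 0.36 relative to all tested probe sets. Under quantile normalization it was -0.20 (-0.12 relative to all), and when array medians were made equal 0.48, so the set as a whole has no settled direction here. Equal array medians shift every gene of an array alike, so the 0.36 relative to all cannot change under them. The share of calls that were higher was 34.3% as deposited, 51.2% under quantile normalization and 66.2% when array medians were made equal.

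The A880STM1 arrays differed from each other in this set. CAT8, FBP1, SFC1, ICL1, PCK1, MLS1 and SIP4 were lower on replicate 1 than on replicate 2, and MDH2, ACS1 and JEN1 were higher. The median log2 signal of all tested probe sets was also lower on replicate 1, at 8.92 against 9.29. The median signed difference of the 10 was log2 -0.33, so this direction was that of the whole array. The median absolute difference between the replicates over the 10 genes was log2 0.48 in A880STM1 and 0.60 in A880STM1K, against 0.10 in BY4741 and 0.15 in A880. Over all tested probe sets it was 0.46, 0.39, 0.14 and 0.12 in the same order. Without A880STM1 replicate 2, FBP1 (log2 -1.23, adjusted p = 0.0260) and CAT8 (log2 -0.84, adjusted p = 0.0436) passed as lower and ACS1 (log2 0.59, adjusted p = 0.0241) as higher than in A880.

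**Figure D3:**
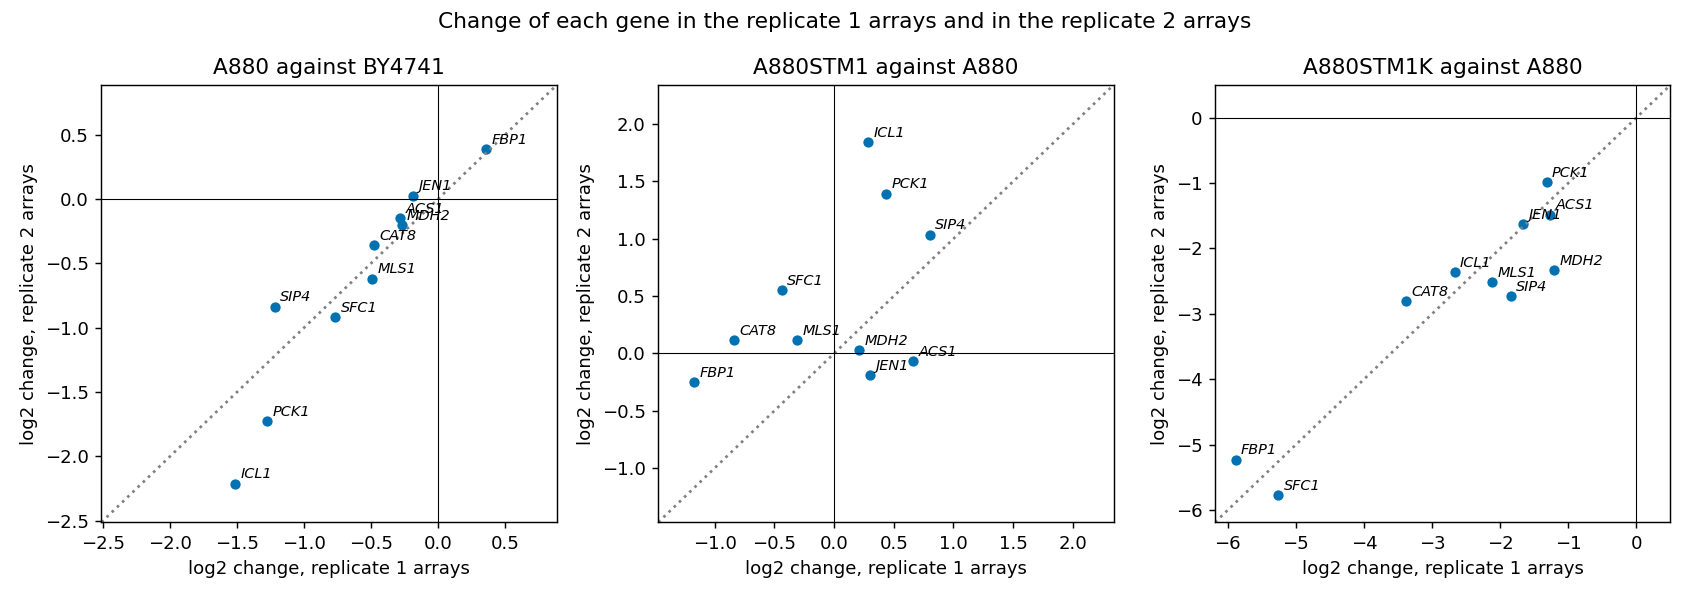
log2 change of each gene from the replicate 1 arrays (horizontal) and from the replicate 2 arrays (vertical) in 3 comparisons, with a dotted line where both are equal. In A880STM1K against A880 all 10 genes are below 0 on both axes, while in A880STM1 against A880 SFC1, CAT8, MLS1, JEN1 and ACS1 change sign between the replicates. Arrays were matched by replicate number only, and whether they are paired was not tested.

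Against BY4741, A880STM1 had 0 of the 10 genes called by limma, where 6.30% of all tested probe sets were called lower and 5.40% higher. At an unadjusted p below 0.05, 5 of the 10 passed, all lower, as did 22.4% of all tested probe sets, with another 11.8% higher. The changes ran from log2 -0.80 ± 0.34 for ICL1 to 0.08 ± 0.23 for ACS1, with a smallest adjusted p of 0.0853, for MLS1. The lower ends of the 95% intervals ran from log2 -1.55 for ICL1 to -0.42 for ACS1, so equal levels in A880STM1 and BY4741 were not shown. With array weights per group and in a fit of only these 4 arrays the count was again 0.

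A880STM1K was set against A880 and against A880STM1. By the labels it differs from A880 in the added altered STM1 and from A880STM1 in the altered residue. Against A880 the POP2 signal and the haploid cell genes differed as well, so those changes cannot be assigned to STM1. All 10 were called lower in both and against BY4741. Of all tested probe sets, 28.0% were called lower and 19.1% higher against A880, 17.1% and 17.9% against A880STM1, and 28.3% and 21.2% against BY4741. The arrays of the 10 genes did not overlap in these comparisons, as was so, in the lower direction, for 44.8%, 27.1% and 42.2% of all tested probe sets. The median of the 10 was log2 -2.30 against A880, -2.48 against A880STM1 and -3.09 against BY4741, beside -0.17, 0.10 and -0.11 for all tested probe sets. When array medians were made equal, the median of all tested probe sets against A880 moved from -0.17 to 0.18, 20.0% were called lower and 29.3% higher, and all 10 genes were still called lower. Relative to all tested, their median was log2 -2.14 as deposited and -2.16 with quantile normalization. Equal array medians shift every gene of an array alike, so they cannot change this difference. The direct comparison of the transformed strains is the test of their difference, and the range there ran from log2 -5.57 for SFC1 to -1.67 for ACS1, largest adjusted p = 0.00134. Between A880STM1K and A880STM1, 2 of the 8 haploid cell genes were called higher in A880STM1K, STE4 at log2 1.06 and RME1 at 1.00, and 0 lower. The part of these genes and of POP2 in the difference was not tested. These comparisons share arrays with each other and are not independent.

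By size of fall against A880, FBP1 and SFC1 formed the deep end with intervals that ended at log2 -4.80 and -4.83, CAT8 followed at -3.10, then ICL1, MLS1 and SIP4 between -2.52 and -2.29, and MDH2, JEN1, ACS1 and PCK1 between -1.77 and -1.15. Neighbours in this order, other than SFC1 and CAT8, had overlapping intervals. In all 10 genes A880STM1K was the lowest of the 4 strains and was separated from the next by an adjusted p of at most 0.00382. BY4741 was highest for 8 genes, A880 for FBP1 and A880STM1 for ACS1. The test did not separate the 2 strains at the top of the order for any gene, the smallest adjusted p between them being 0.109, for SFC1.

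Within the set, each gene's log2 signals over the 8 arrays followed the mean of the other 9, with Pearson r from 0.902 for PCK1 to 0.997 for SFC1. These points come from 4 strains and the A880STM1K arrays stand far from the rest, so r mostly restates that difference. Over the 6 arrays of the other 3 strains r was 0.93 for SFC1, 0.91 for ICL1, 0.91 for PCK1 and 0.86 for MLS1, but -0.18 for FBP1, -0.10 for JEN1 and -0.05 for ACS1. Outside the set, the 5 genes whose signals over the 8 arrays were most like the mean of the 10 were YLR156W, MSA1, YGR067C, ALT2 and MIH1. Their r lay between 0.991 and 0.999. YGR067C went from 3623 and 3488 on BY4741 and 2077 and 1762 on A880 to 125 and 142 on A880STM1K. ALT2, a paralog of alanine transaminase, went from 4798 and 4263 on BY4741 to 580.2 and 560.5 on A880STM1K. YLR156W was not above background on either A880STM1K array and its probe set is shared with near-identical copies.

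Most other enzymes around the pathway were not called lower with the set. Of 9 further gluconeogenic and glyoxylate genes, 4 rose and 1 fell in A880STM1K against A880, at a median of log2 0.60, where 19.1% of all tested probe sets were higher and 28.0% lower. DAL7, another malate synthase of yeast, rose by log2 2.28 ± 0.33, ACS2, the acetyl-CoA synthetase used on glucose, by 1.67 ± 0.26 and PYC2, a pyruvate carboxylase, by 1.52 ± 0.23 (largest adjusted p = 0.000716). The call of ACO1, aconitase, the other that rose, was lost with quantile normalization (adjusted p = 0.260) and without any 1 array of BY4741 or A880 or A880STM1K replicate 1 (adjusted p = 0.0510 to 0.204). Against A880, MLS1 and ACS1 fell where the genes of their isozymes DAL7 and ACS2 rose. DAL7 also rose in A880STM1 against A880, by log2 1.69 ± 0.33 (adjusted p = 0.0105), a call lost without A880 replicate 2. DAL7 was not called in A880STM1K against A880STM1 (log2 0.59, adjusted p = 0.194) or BY4741 (log2 0.51, adjusted p = 0.229). MLS1 was called lower and ACS2 higher in each of those comparisons. IDP2, the cytosolic isocitrate dehydrogenase, was the 1 that fell against A880, by log2 -1.60 ± 0.28 (adjusted p = 0.00133). It is named after its value was seen. Against A880STM1, 2 of the 9 were higher in A880STM1K and 1 lower, where 17.9% of all tested probe sets were higher and 17.1% lower. The median there was log2 0.16, beside 0.10 for all tested probe sets. Against BY4741, 3 were higher and 2 lower, where 21.2% of all tested probe sets were higher and 28.3% lower. In A880 against BY4741, where 7.71% of all tested probe sets were called higher and 6.19% lower, 2 of the 9 were called. ACS2 was higher by log2 1.44 ± 0.26 (adjusted p = 0.00769) and DAL7 lower by log2 -1.77 ± 0.33 (adjusted p = 0.00824). Those calls were lost without either BY4741 array or without A880 replicate 2 (adjusted p = 0.0625 to 0.107). Of the 4 glycolytic genes that oppose FBP1 and PCK1, 2 rose in A880STM1K against A880 and 0 fell, PYK2, a pyruvate kinase, by log2 0.97 ± 0.24 and PFK2, a phosphofructokinase subunit, by 0.81 ± 0.25 (largest adjusted p = 0.0213). PYK2 lost its call without A880 replicate 2 (log2 0.94), and PFK2 with quantile normalization (adjusted p = 0.0615). PFK2 also lost it without either A880 array or A880STM1K replicate 1 (log2 0.62 to 0.87). PYK2 rose in A880STM1 against A880 as well (log2 0.86, adjusted p = 0.0321) and was not called between the transformed strains (log2 0.11, adjusted p = 0.744). PFK2 was already higher in A880 than in BY4741 (log2 0.95, adjusted p = 0.0313), and higher in A880STM1K than in A880STM1 (log2 0.92, adjusted p = 0.0162). Each of these further calls was lost in some fits with 1 array left out.

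Carriers of acetyl units mostly moved with the set. Of 10 genes of acetate, carnitine and organic acid transport and transfer, 6 fell and 1 rose in A880STM1K against A880, at a median of log2 -1.37, against 28.0% lower and 19.1% higher overall. CAT2 lost its call with equal array medians (adjusted p = 0.0621). YAT1, a carnitine acetyltransferase, fell by log2 -2.36 ± 0.25 and ATO3, of a family linked to acetate uptake and ammonium export, by log2 -2.21 ± 0.32, while OAC1, the mitochondrial oxaloacetate carrier, rose by log2 1.86 ± 0.26 (largest adjusted p = 0.000474). In A880 against BY4741, 2 of the 10 fell and 0 rose, against 6.19% lower and 7.71% higher over all tested probe sets. They were CRC1, the carnitine carrier, at log2 -2.05 ± 0.25 and YAT2 at -1.42 ± 0.38 (largest adjusted p = 0.0330). CRC1 rose in A880STM1 against A880 by log2 0.97 ± 0.25 (adjusted p = 0.0241), as did ATO2 by 1.20 ± 0.24 (adjusted p = 0.0110). These were 2 of the 10, where 6.82% of all tested probe sets rose and 13.1% fell. YAT2 and the CRC1 rise lost their calls without any 1 array of BY4741, A880 or A880STM1 (adjusted p = 0.0502 to 0.178), and ATO2 without either A880 array or A880STM1 replicate 1 (adjusted p = 0.0675 to 0.0945).

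Among 18 regulators of the response to carbon source, 4 rose and 3 fell in A880STM1K against A880, at a median of log2 0.18. These counts are near or below the 19.1% higher and 28.0% lower of all tested probe sets. They were 5 and 2 with quantile normalization and 5 and 1 with equal array medians. MIG2, a glucose-induced repressor, rose by log2 3.89 ± 0.39, HXK2, the hexokinase that also takes part in glucose repression, by 3.67 ± 0.36 and HAP4, the activator of respiratory genes, by 2.56 ± 0.26 (largest adjusted p = 6.67e-05). MIG2 had 1028 and 551 on the A880STM1K arrays and 37.5 to 56.7 on the other 6. The 3 that fell against A880 were SIP2 by log2 -1.09, ADR1 by -0.76 and RDS2 by -0.71, named after their values were seen. ADR1 and RDS2 were not called with equal array medians (adjusted p = 0.158 and 0.120), nor was RDS2 with quantile normalization (adjusted p = 0.178). HXK2 rose in A880STM1 as well, 7.99-fold against A880 (adjusted p = 0.000676), with 5565 and 2241 on the A880STM1 arrays. That change was log2 2.34 without replicate 1 of A880STM1 and 3.65 without replicate 2. MIG1, the main repressor of glucose-repressed genes, fell in A880 against BY4741 by log2 -2.62 ± 0.34 and rose in A880STM1 against A880 by 1.61 ± 0.34 (largest adjusted p = 0.0130), a rise not called without A880 replicate 2 (adjusted p = 0.117) or A880STM1 replicate 1 (adjusted p = 0.0519). Between the transformed strains 4 of the 18 regulators were higher in A880STM1K and 3 lower, near the 17.9% and 17.1% of all tested probe sets. Among these, MIG2 changed by log2 3.91 ± 0.39, HAP4 by 1.48 ± 0.26 and MIG1 by -1.88 ± 0.34 (largest adjusted p = 0.00201).

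The GID ubiquitin ligase, which marks FBP1, PCK1, ICL1 and MDH2 proteins for breakdown when glucose returns, was measured through 8 of its 9 listed genes, GID10 having no match. In A880STM1K against A880, 5 fell and 0 rose, at a median of log2 -0.95, against 28.0% lower and 19.1% higher overall. VID28 fell by log2 -1.77 ± 0.37, UBC8, its ubiquitin-conjugating enzyme, by -1.43 ± 0.26 and GID8 by -0.97 ± 0.22 (largest adjusted p = 0.00503). With equal array medians 3 fell and 2 rose, where 20.0% of all tested probe sets were called lower and 29.3% higher. GID8 was then not called (adjusted p = 0.0783), nor was it without A880 replicate 2, at log2 -0.91. In A880 against BY4741, 3 of the 8 fell and 0 rose, against 6.19% lower and 7.71% higher over all tested probe sets. VID24, the subunit that recognises the substrates, fell by log2 -1.24 ± 0.21, RMD5 by -0.91 ± 0.26 and GID8 by -0.76 ± 0.22 (largest adjusted p = 0.0447). In A880STM1 against A880, where 6.82% of all tested probe sets rose and 13.1% fell, 1 rose, VID24 by log2 0.83 ± 0.21 (adjusted p = 0.0239). All of these calls in A880 against BY4741 and the VID24 rise were lost without any 1 array of BY4741 or A880 (adjusted p = 0.0509 to 0.288).

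Of 7 genes of growth on glucose, which include HXK2, MIG2 and CDC19 of the lists above, 4 rose and 0 fell in A880STM1K against A880, at a median of log2 1.63, where 19.1% of all tested probe sets rose and 28.0% fell. ADH1, an alcohol dehydrogenase, was not called without either A880 array or A880STM1K replicate 1 (adjusted p = 0.0670 to 0.131). HXT3, a low-affinity glucose transporter, rose by log2 1.84 ± 0.42 (adjusted p = 0.00497). Their summed signal was 38048 and 31635 on the A880STM1K arrays, 16661 to 18784.5 on those of BY4741 and A880, and 34561 and 19273 on replicates 1 and 2 of A880STM1. None of the 7 was below background on both arrays of any strain. In A880STM1 against A880 1 of the 7 rose, HXK2, and 0 fell, where 6.82% of all tested probe sets rose and 13.1% fell. Between the transformed strains 2 of the 7 were higher in A880STM1K and 0 lower, at a median of log2 0.67. There 17.9% of all tested probe sets were higher and 17.1% lower. The 2 were MIG2 and HXT3, the latter at log2 1.84, or 1.18 without A880STM1 replicate 2. Replicate 1 had the higher sum in both transformed strains, while 7 of the 10 genes were lower on replicate 1 in A880STM1 and 3 of 10 in A880STM1K. In A880STM1, replicate 1 had the lower median log2 signal over all tested probe sets (8.92 against 9.29) and the higher maximum signal (12284.5 against 6918). The sum and these counts therefore cannot be set apart from a difference of the whole arrays. The part of the glucose growth genes in the fall of the 10 was not tested. The labels give no glucose level or culture density for single cultures.

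**Figure D4:**
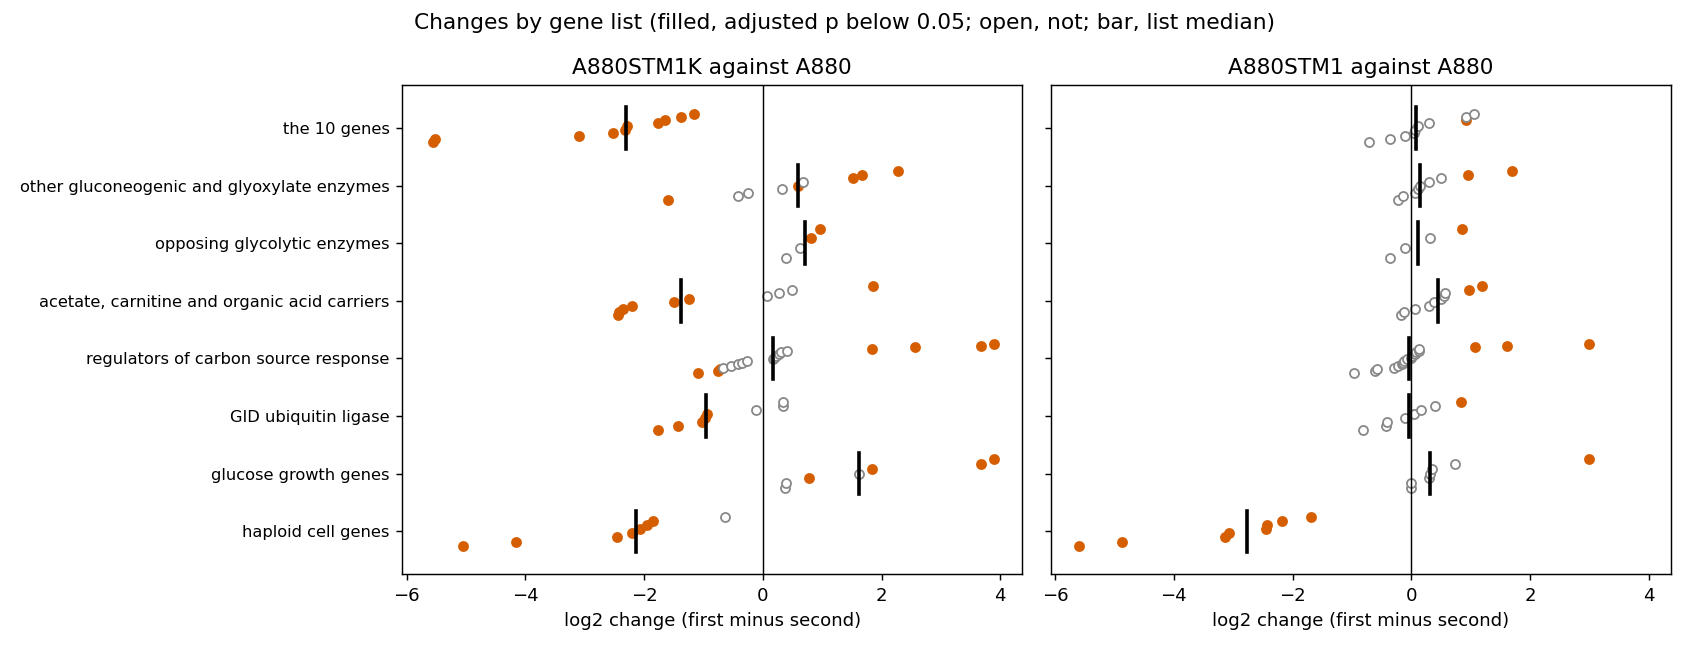
log2 change of every gene of 8 lists in A880STM1K against A880 (left) and A880STM1 against A880 (right), filled where the adjusted p was below 0.05, with a bar at each list's median. On the left the 10 genes have a median of -2.30 and glucose growth genes 1.63, and on the right these medians are 0.09 and 0.32, while the haploid cell genes lie below 0 in both. HXK2, MIG2 and CDC19 stand in 2 lists, and both panels share the A880 arrays.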

How the data were processed

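Total RNA of 8 cultures, 10 µg each, was labelled with biotin for Affymetrix arrays, per the labels' protocols. The deposited file gives a linear intensity per probe set and array, and the submitters' processing notes name MAS5, without version or settings. The mean after trimming 2% at each end was 500.15 to 500.26 on all arrays. Probe sets were named through GEO's platform annotation, with symbols updated by gene ID from the table of assembly R64, which changed 12. Background was the 90th percentile of the 1746 probe sets for another species, 5.15 to 8.40 per array. Probe sets of 1 yeast gene above it on at least 2 arrays were tested (5496).

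log2 signals were fitted with limma 3.58.1 in R 4.3.3 (jsonlite 2.0.0 read the labels), as group means over 8 arrays with an intensity trend (4 residual and a median of 6.56 prior degrees of freedom). Each of 6 comparisons was adjusted by Benjamini-Hochberg over all tested probe sets. The members and lists were chosen with earlier results of these data known. All 10 members are named, and of other lists up to 3 called genes by smallest p, with exceptions stated. The 5 most alike genes were ranked by Pearson r. Alternatives were other scalings, filters, thresholds, a pseudocount of 16, a floor, no trend, fits with a replicate block or of only the 4 arrays in question, and each array left out. Array weights per group were tried too, chosen after seeing the data. Scripts were tested on simulated data. Precision is limited by 2 arrays per strain. A planned search of promoter sequences was not run, and no sequence is shown.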

Additional observations from a re-analysis of the deposited data

How the results depend on the processing

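All 10 genes kept their direction in the 3 comparisons of A880STM1K under all 21 alternatives, and all their calls but that of PCK1 against A880 without A880 replicate 1. With 1 array left out, the number called was 9 to 10 there, 10 in the other comparisons of A880STM1K, 0 to 5 in A880 against BY4741, 0 to 3 in A880STM1 against A880 and 0 to 2 in A880STM1 against BY4741, the lone array being assumed to vary like the other strains. In A880 against BY4741 the count went from 3 to 8 with only the 4 arrays compared and to 7 with array weights per group, chosen after seeing the data, where 54.4% and 57.1% of all tested probe sets were called. In A880STM1 against A880 it went from 1 to 3 with equal array medians, a pseudocount of 16 or the replicate block, where 11.5%, 6.79% and 8.61% of all tested were called higher. It was 0 there with all probe sets of the array, an adjusted p below 0.01, a 2-fold minimum or array weights. Quantile normalization gave 1 called in A880STM1 against BY4741, MLS1 at log2 -0.80. The replicate block added ICL1 and SIP4 (adjusted p = 0.0268 and 0.0350) in A880STM1 against A880 and changed no other call of the 10. Same-numbered arrays deviated together with r from 0.04 to 0.29 over probe sets, positive in all 6 pairs of strains and below 0.1 in 1. The main fit used group means only, and whether the arrays are paired was not tested. With the replicate block more probe sets were called in every comparison. In A880STM1 against A880 it called 8.61% higher and 16.4% lower, beside 6.82% and 13.1% in the main fit.

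Some values that had passed no test changed sign. With quantile normalization these were JEN1 at log2 0.066 in A880 against BY4741, MDH2 at -0.24, SFC1 at -0.16, ACS1 at -0.081 and JEN1 at -0.33 in A880STM1 against A880, and ACS1 at -0.11 in A880STM1 against BY4741. With equal array medians they were MLS1 at 0.29 and CAT8 at 0.027 in A880STM1 against A880, and MDH2 at 0.15, JEN1 at 0.25 and SIP4 at 0.16 in A880STM1 against BY4741. With 1 array left out, A880STM1 against A880 ranged from -0.24 to 0.042 for MLS1, -0.30 to 0.42 for SFC1, -0.11 to 0.22 for JEN1 and -0.84 to 0.11 for CAT8. Against BY4741 it ranged from -0.85 to 0.18 for FBP1, -0.21 to 0.38 for ACS1, -0.19 to 0.14 for JEN1 and -0.30 to 0.084 for SIP4. The cause was not tested. All 10 genes lay at least 6.05 times above background on every array, and 2 arrays per strain limit the precision.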
